A study of Rattus norvegicus with 8 samples.

Results

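The oncofetal genes Hmga1, Hmga2, Igf2bp1, Igf2bp2, Igf2bp3, Lin28b and Myc were examined in rat nucleus pulposus (NP) cells after knockdown of Sirt6. The 7 genes were taken by name from the table of the authors' comparison, and 6 of them had a row among its 13543 genes, spike-ins left out. Lin28b had no row there and lay below that table's count filter, which kept rows whose 8 raw counts summed to more than 80, so no level is given for it. The other 6 genes all passed the filter on low counts and entered the test.

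NP cells, the resident cells of the gelatinous core of the intervertebral disc, were isolated from adult Sprague Dawley rats and transduced with lentivirus. Cells of the Sirt6-KD group (libraries S5 to S8) received a mixture of 3 shRNA clones against Sirt6, labelled SIRT6KD/ShSirt6, and cells of the Sirt6-Ctrl group (libraries S1 to S4) received a control shRNA, labelled SIRT6Ctrl/ShCtrl. Both groups were therefore primary cultures that had passed through transduction and selection in puromycin, and neither was untransduced tissue. The paper describes culture of such cells in hypoxia before protein extraction, and does not state whether the RNA samples were cultured so. RNA of each of the 8 samples was sequenced in bulk, so a smaller number of cells of 1 kind and less RNA per cell cannot be told apart.

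As background, these genes are active in the embryo and in many tumours, and most are silenced or lowered in adult tissue. HMGA proteins bend AT-rich DNA through AT-hook motifs and help to open chromatin, IGF2BP proteins bind and stabilize messenger RNAs, and MYC drives growth genes through E-boxes. LIN28B blocks maturation of the let-7 microRNAs, and let-7 in turn represses the messages of HMGA2, LIN28B, IGF2BP and MYC family members, which ties the genes together. SIRT6 is a chromatin deacetylase that acts on histone H3 lysine 9, among other sites.

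The mature let-7 sequences are shown because their shared seed, bases 2 to 8 in capitals, is what recognizes the transcripts of this group. In the rat RefSeq set 9 mature names carried this seed, and mature microRNAs themselves were not measured in these libraries.
rno-let-7a-5p: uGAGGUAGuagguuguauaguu
rno-let-7b-5p: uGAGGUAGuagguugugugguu
rno-let-7c-5p: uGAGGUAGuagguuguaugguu
rno-let-7i-5p: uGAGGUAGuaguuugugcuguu

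Promoters of Hmga1 and Hmga2, whose transcripts were called higher in the knockdown, and of Igf2bp3, which holds an E-box, are shown next. Each is the 250 bases before the RefSeq start in build GRCr8, written 5′ to 3′ on the gene's strand, with E-boxes (CACGTG) and GC boxes (GGGCGG, found on both strands) in capitals. Hmga1 lies on the plus strand (chr20:5613258-5613507), Hmga2 on the minus strand (chr7:57880342-57880591) and Igf2bp3 on the minus strand (chr4:79525731-79525980).
Hmga1: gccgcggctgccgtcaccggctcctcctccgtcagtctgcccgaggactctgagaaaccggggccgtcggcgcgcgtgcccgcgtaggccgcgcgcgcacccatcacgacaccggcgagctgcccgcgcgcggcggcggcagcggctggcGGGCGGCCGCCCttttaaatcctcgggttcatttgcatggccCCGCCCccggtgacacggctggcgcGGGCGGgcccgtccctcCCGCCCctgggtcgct
Hmga2: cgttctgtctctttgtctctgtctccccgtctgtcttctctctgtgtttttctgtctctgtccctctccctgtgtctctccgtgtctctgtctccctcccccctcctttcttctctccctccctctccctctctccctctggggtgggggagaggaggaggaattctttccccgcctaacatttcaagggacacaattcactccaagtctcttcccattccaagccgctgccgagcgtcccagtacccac
Igf2bp3: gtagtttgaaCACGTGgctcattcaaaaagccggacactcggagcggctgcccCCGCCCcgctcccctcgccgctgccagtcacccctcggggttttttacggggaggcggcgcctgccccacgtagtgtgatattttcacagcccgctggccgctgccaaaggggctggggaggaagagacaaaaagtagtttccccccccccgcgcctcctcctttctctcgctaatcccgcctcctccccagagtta

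The Hmga1 promoter had a GC content of 76.8% and 5 GC boxes and no E-box. In contrast, the Hmga2 promoter was a pyrimidine tract, with C or T at 72.8% of its bases, and held neither motif. Igf2bp3 had 1 E-box, 240 bases before the start, and 1 GC box. Over 33465 rat promoters of the same length, 5.59% held an E-box and 30.5% a GC box on either strand. The Igf2bp2 promoter (chr11:92378658-92378907, plus strand) had 6 GC boxes and a GC content of 82.4%. No AP-1 motif (TGANTCA) or TATAAA was found in the 3 printed windows, against 6.34% and 12.9% of all promoters. These matches describe letters only.

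The 8 libraries held 31994838 to 40124813 counts each, and 13250 genes passed the filter. Spike-in RNA took 6.27%, 9.80%, 3.08% and 2.97% of the counts in S1 to S4 and 2.15% to 2.47% in the Sirt6-KD libraries, a difference with an exact two-sided permutation p of 0.0286, the smallest that 4 against 4 allows. Levels are TMM-normalized CPM (reads of a gene per 1000000 reads of the library), and log2 fold changes are Sirt6-KD over Sirt6-Ctrl from edgeR's quasi-likelihood test. Genes were called where the adjusted p was under 0.05 and the fold change exceeded 1.5. Sirt6 itself was at 56.4, 54.3, 52.5 and 47.6 CPM in S1 to S4 and at 21.8, 21.0, 19.2 and 20.6 CPM in S5 to S8, and fell by 1.35 on the log2 scale (SE 0.13, edgeR adjusted p = 0.000713). Among 17 NP markers 11 had a row, and Col2a1, Krt18, Krt19, T, Shh and Noto had none, so the cell type was taken from the study's isolation and not from these defining markers. Of the 11, Krt8 (-1.32, edgeR adjusted p = 0.0441) and Ca3 (-2.70, edgeR adjusted p = 0.0127) were called lower and Slc2a1 higher, with a list median of -0.29. These are 27.3% of the 11, where 18.7% of all genes were called in either direction. Of the 11 log2 fold changes 5 were positive and 6 negative, so the list had no common direction. Endothelial markers had rows for 2 of 9 (summed 0 to 1.84 CPM in controls and 0.299 to 2.37 CPM in knockdown cells), leukocyte markers for 3 of 12 (11.9 to 29.7 and 15.0 to 23.8 CPM), and erythroid markers for 0 of 5. Osteoblast markers had rows for 2 of 5, summing to 13.2 to 21.2 CPM in controls and 25.1 to 29.8 CPM in Sirt6-KD, and Runx2 of these was called higher (0.83, edgeR adjusted p = 0.0208). The endothelial and leukocyte sums overlapped between the groups, whereas the osteoblast sum was higher in Sirt6-KD. Most of that sum was Runx2, at 11.2 to 19.9 CPM in controls and 24.4 to 28.7 CPM in Sirt6-KD. Ibsp, the other row, was at most 2.55 CPM and had a log2 fold change of -0.39 (edgeR adjusted p = 0.875). The summed NP markers were also higher in Sirt6-KD, at 1267 to 2859 CPM in controls and 3426 to 4437 CPM after knockdown. Slc2a1 gave the largest part of this NP sum, at 554 to 2073 CPM and 2650 to 3609 CPM. Krt8 and Ca3 went in the direction opposite to the called members, and Slc2a1 and Runx2 in the same direction. These markers were named after their values were seen, and their part in the members' levels was not tested.

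Of the 6 oncofetal genes tested, edgeR called 3 higher and 0 lower in Sirt6-KD cells. Across all genes tested, 8.02% were called higher, 10.7% lower and 18.7% in either direction. At an unadjusted p under 0.05, and likewise with DESeq2 and with limma-voom, the counts were again 3 higher and 0 lower, where 36.6% of all genes had such a p. Hmga1, Hmga2 and Myc were the genes called, and in each of them every Sirt6-KD library lay above every Sirt6-Ctrl library, as was so for 14.8% of all genes (15.6% in the other direction). Igf2bp2 and Igf2bp3 had log2 fold changes above 0, as 49.1% of all genes did, that did not pass the test, and Igf2bp1 was near its detection floor. When libraries were scaled by their spike-in counts instead, edgeR called 0 of the 6 and the calls over all genes went from 1063 higher and 1416 lower to 20 higher and 4 lower. Sirt6 itself was not called under this scaling (-0.36, or -1.31 relative to the median of all genes). Without S1 and S2, the libraries with the largest spike-in shares, Hmga1 alone was called. Shares of all genes, here and below, are edgeR's over all 8 libraries. Counts from DESeq2, from limma-voom and from fits that left libraries out have no such share beside them. They were not read against all genes.

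**Figure D1:**
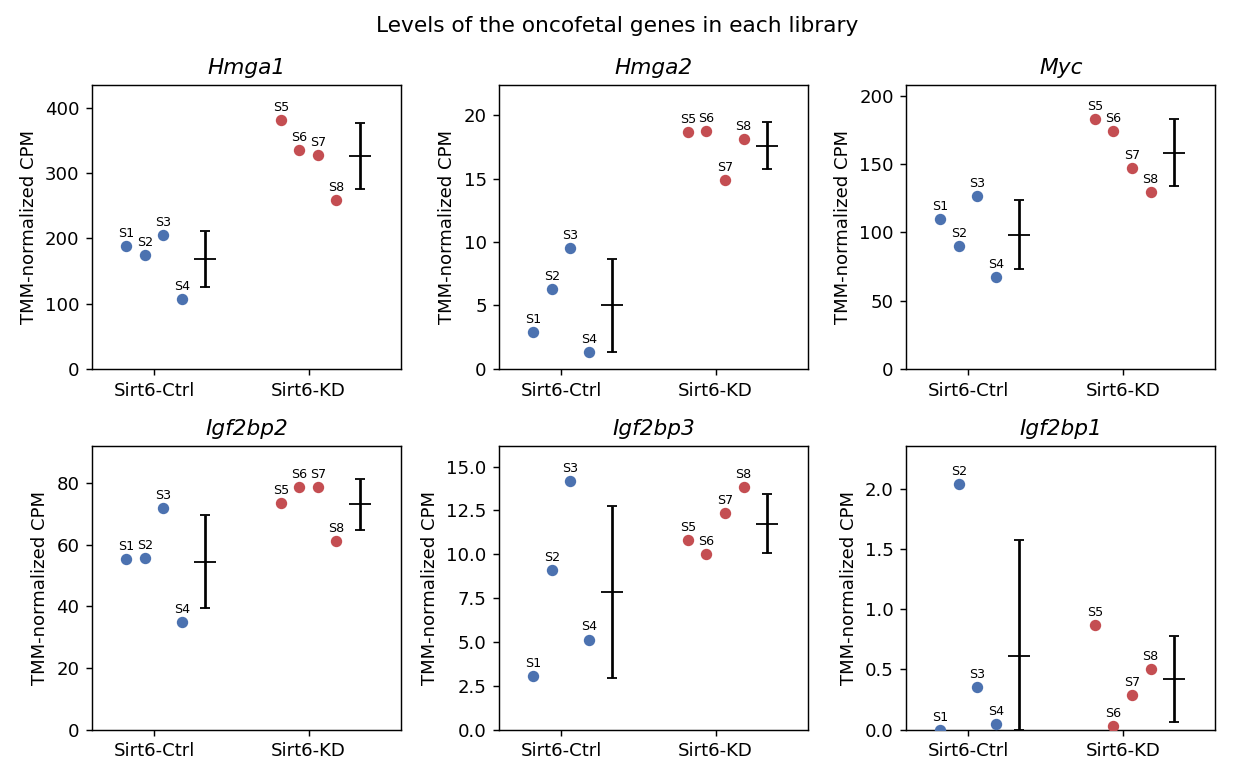
Level of each of the 6 oncofetal genes with a row, in CPM (linear axes from 0, a different scale in each panel), in the 4 Sirt6-Ctrl and 4 Sirt6-KD libraries. Points are libraries, and bars give the mean and SD, with the lower SD bar ended at 0 where it would go below; in the panels of Hmga1, Hmga2 and Myc the groups do not overlap, and for Hmga1 they span 107 to 205 CPM and 259 to 382 CPM.

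Hmga1 (ENSRNOG00000000488) encodes an AT-hook protein that is abundant in embryonic and dividing cells. Its levels were 188, 174, 205 and 107 CPM in S1 to S4 and 382, 335, 327 and 259 CPM in S5 to S8, from raw counts of 4416 to 13194. The lowest Sirt6-KD library, S8, was above the highest Sirt6-Ctrl library, S3. The mean went from 168 ± 42.8 CPM in controls to 326 ± 50.5 CPM (SD, n = 4 in each group). The log2 fold change was 0.95 (SE 0.20, 95% confidence interval 0.50 to 1.40, edgeR adjusted p = 0.0115), and Hmga1 was called also when any 1 library was left out. RefSeq lists 3 pseudogenes of Hmga1 and the gene Hmga1l1 in the rat, so how reads were shared among near-identical copies is uncertain.

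Hmga2 (ENSRNOG00000042460), the paralogue best known as a let-7 target, had raw counts of 55 to 324 in Sirt6-Ctrl and 570 to 645 in Sirt6-KD libraries. It measured 2.87, 6.28, 9.54 and 1.33 CPM in S1 to S4 and 18.7, 18.8, 14.9 and 18.1 CPM in S5 to S8. Control libraries were spread widely, whereas the Sirt6-KD libraries lay close together. Means were 5.01 ± 3.66 CPM and 17.6 ± 1.85 CPM, and the log2 fold change was 1.82 (SE 0.50, 95% confidence interval 0.71 to 2.92, edgeR adjusted p = 0.0276). The call was lost without S1 (adjusted p = 0.077), S5 (0.0705), S6 (0.0724), S7 (0.0608) or S8 (0.0588), and the log2 fold change ran from 1.5 to 2.33 over the 8 fits without 1 library. Hmga2 overlaps 3 lncRNA genes in the RefSeq annotation, and the strand setting of the counting was not given in the sources used here.

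Myc (ENSRNOG00000004500) is the transcription factor of the group. In S1 to S4 it stood at 110, 90.1, 126 and 67.3 CPM, and in S5 to S8 at 183, 174, 147 and 129 CPM. The groups came close, with the lowest Sirt6-KD library, S8, just above the highest Sirt6-Ctrl library, S3. From 98.4 ± 25.5 CPM to 158 ± 24.8 CPM, the log2 fold change was 0.69 (SE 0.20, 95% confidence interval 0.25 to 1.12, edgeR adjusted p = 0.0324). Without S1, S2, S5, S6 or S7 the adjusted p was 0.0597, 0.0559, 0.098, 0.0963 and 0.0683, and without S4 the log2 fold change fell to 0.54, short of the fold threshold.

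**Figure D2:**
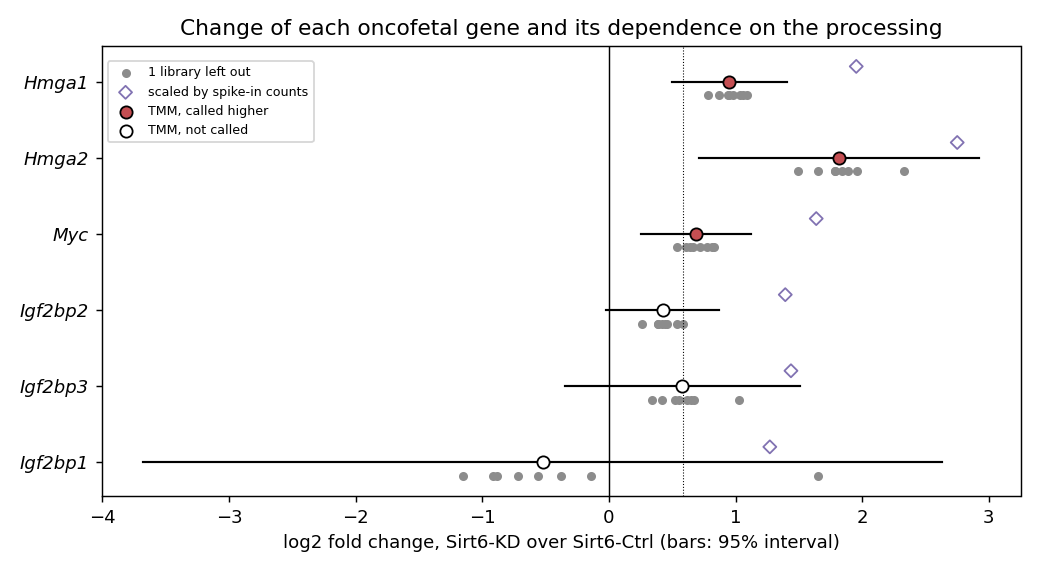
Log2 fold change (Sirt6-KD over Sirt6-Ctrl) of the 6 oncofetal genes with approximate 95% confidence intervals, and the estimates with 1 library left out (grey) or with spike-in scaling (diamonds); the dotted line marks a fold change of 1.5. Hmga1, Hmga2 and Myc lie to the positive side with intervals that leave out 0, and the interval of Igf2bp1 runs from -3.68 to 2.63.

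The IGF2BP family contains RNA-binding proteins that are switched off after birth in most tissues, with Igf2bp2 as the member that adult cells keep. Igf2bp2 (ENSRNOG00000025946) was at 55.4, 55.8, 72 and 35 CPM in S1 to S4 and at 73.6, 78.9, 78.9 and 61.1 CPM in S5 to S8. Only S8 fell within the range of the controls. Means were 54.6 ± 15.1 CPM and 73.1 ± 8.38 CPM, and the log2 fold change of 0.42 (SE 0.20, 95% confidence interval -0.026 to 0.87) did not pass the test (edgeR adjusted p = 0.158). 1 lncRNA gene overlaps it.

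Igf2bp3 (ENSRNOG00000009052), an embryonic form that reappears in tumours, measured 3.05, 9.12, 14.2 and 5.14 CPM in S1 to S4 and 10.8, 10.0, 12.3 and 13.8 CPM in S5 to S8. Its highest value of all was in a control, S3. The log2 fold change was 0.58 (SE 0.42, 95% confidence interval -0.35 to 1.5, edgeR adjusted p = 0.348), from 7.87 ± 4.89 CPM to 11.8 ± 1.70 CPM.

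Igf2bp1 (ENSRNOG00000006122), the embryonic paralogue that stabilizes MYC transcripts, had 0, 66, 12 and 2 counts in S1 to S4 and 30, 1, 11 and 17 counts in S5 to S8. A count of 3 corresponds to 0.0727 to 0.0928 CPM in these libraries. Library S2 alone held most of the control counts, at 2.04 CPM against 0, 0.353 and 0.0485 CPM in S1, S3 and S4. Its log2 fold change was -0.52 with an SE of 1.42 (95% confidence interval -3.68 to 2.63, edgeR adjusted p = 0.826), and without S2 it was 1.65, so 1 control library set its sign and no direction was read.

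Members were also set against each other within each library. The log2 ratio of Hmga2 to Myc was 1.46 higher in Sirt6-KD than in Sirt6-Ctrl, that of Hmga2 to Igf2bp2 1.71 higher, that of Hmga2 to Igf2bp3 1.37 higher, and that of Hmga1 to Igf2bp2 0.52 higher, each without overlap. The ratio of Hmga1 to Hmga2 differed by -1.19 (Sirt6-KD minus Sirt6-Ctrl) and overlapped between the groups. Over the 10 pairs of the 5 members other than Igf2bp1, the 4 pairs without overlap had an exact two-sided permutation p of 0.0286. That is the smallest p possible, and it became 0.0714 after Benjamini-Hochberg adjustment over the 10 pairs. With 4 pairs at this floor the adjusted p could not be lower. No pair could therefore pass, and the test decides nothing about the ratios. The pairs also share genes. Ratios of Hmga1 to Myc differed by 0.27 (exact permutation p = 0.0571, adjusted 0.0952). These comparisons were added after the values had been seen.

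Profiles over the 8 libraries were compared by the root mean square (RMS) difference of centred log2 CPM. Among the members, Hmga1 and Myc lay closest (RMS 0.164), followed by Igf2bp2 and Myc (0.183), and Igf2bp1, with its few counts, lay farthest from the others (1.36 to 1.71). Hmga2 was 0.82 to 1.0 from Hmga1, Myc, Igf2bp2 and Igf2bp3. Of all genes tested, Ell (0.135), Pcif1 (0.143) and Timp3 (0.143) were nearest to Hmga1, Tinagl1 (0.255), Tgm1 (0.288) and Slc7a2 (0.289) to Hmga2, and Patl1 (0.105), Smg9 (0.106) and Prdm4 (0.107) to Myc.

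**Figure D3:**
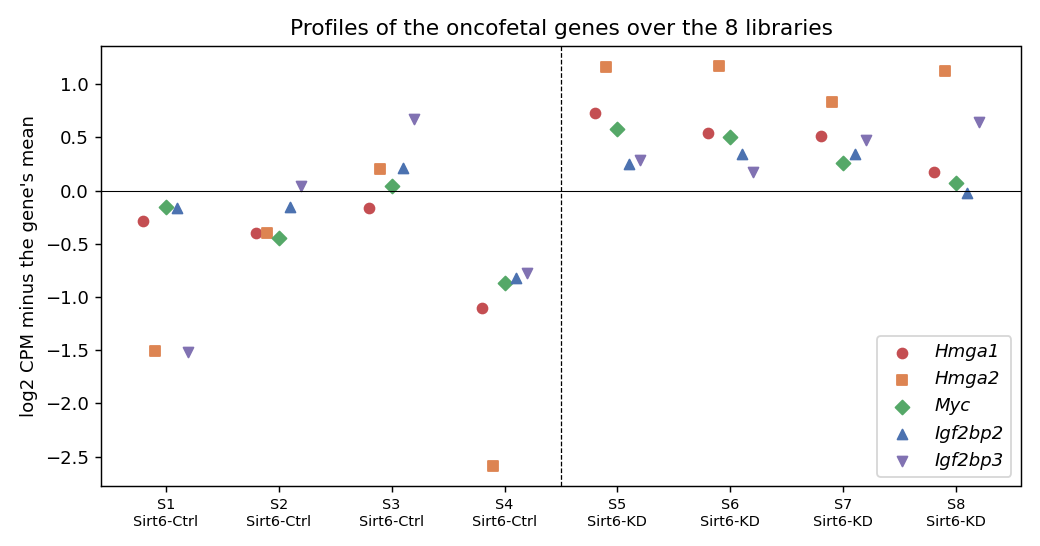
Log2 CPM of Hmga1, Hmga2, Myc, Igf2bp2 and Igf2bp3 in each library, minus that gene's mean over the 8 libraries (y axis, log2 units); points are libraries and the dashed line parts Sirt6-Ctrl from Sirt6-KD. In S4 all 5 genes lie below their means, and Hmga2 is lowest there, at 1.33 CPM.

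Controls differed more among themselves than knockdown cells for all 6 members. The coefficient of variation over libraries was 25.4% in Sirt6-Ctrl and 15.5% in Sirt6-KD for Hmga1, 73.1% and 10.5% for Hmga2, 62.2% and 14.4% for Igf2bp3, and 25.9% and 15.7% for Myc. The same order held for 85.6% of all genes tested, with medians of 32% and 14.6%, so it was not particular to these genes. S3 was the highest control library for 5 of the 6 members and S4 the lowest for 4.

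S4 and S8 were the lowest libraries of their groups for Hmga1 and Myc. Within their groups they also had the highest summed levels of annulus fibrosus and tenocyte markers. The sum was 26116 CPM in S4 against 13781 to 17154 CPM in S1 to S3, and 17839 CPM in S8 against 8181 to 10250 CPM in S5 to S7. Nearly all of this sum was the collagen gene Col1a1, with a mean of 17093 CPM over the controls and 11032 CPM over the knockdown libraries. Thy1, the next highest marker, had means of 364 and 215 CPM, so the sums give the level of 1 gene more than that of the list. Smooth muscle markers were likewise highest in S4 and S8 within their groups, at 2620 CPM in S4 against 352 to 747 CPM and 2154 CPM in S8 against 873 to 1120 CPM. The part of these cells or states in the levels of Hmga1 and Myc was not tested. All 5 annulus fibrosus and tenocyte markers tested had negative log2 fold changes (6 of 7 had a row, Tnmd had none). Over all genes tested, 49.1% had a log2 fold change above 0. Of the 5 markers 2 were called lower, as were 10.7% of all genes. Col1a1, which made up nearly all of the sum, was not among them (-0.63, edgeR adjusted p = 0.15).

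The other genes around this group were read from lists, by their counts and medians alone. For let-7 maturation and action, 18 of 21 factors had a row and 17 were tested, of which 29.4% were called in either direction, against 18.7% of all genes. Lin28a, Lin28b and Trim71 had none. 4 factors were called higher, namely Zc3h12a (listed as Mcpip1), a ribonuclease that cuts microRNA precursors, Ddx17, a helicase of the Microprocessor, and the Argonaute genes Ago1 and Ago2. Zc3h12a ranged from 42.7 to 83.1 CPM in Sirt6-Ctrl and from 153 to 158 CPM in Sirt6-KD, with a log2 fold change of 1.25 (edgeR adjusted p = 0.0033). Ago2 had 7.61 to 29.8 CPM and 35.9 to 44.4 CPM, with a log2 fold change of 1.28 (edgeR adjusted p = 0.0254). The Dicer partner Tarbp2 was the 1 factor called lower (-0.61, edgeR adjusted p = 0.0421). Under spike-in scaling, which raised the median of all genes to 0.94, its value was 0.38, or -0.56 relative to that median. Without S1 and S2, 3 factors were called higher and 0 lower.

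Among 44 let-7 target genes tested of 50 listed, 9 were called higher and 2 lower, a share of 25% against 18.7% of all genes. The members Hmga1, Hmga2 and Myc are among the 9, so the 25% includes genes already reported above as called. Without the oncofetal members the counts were 6 higher and 2 lower of 38, a smaller share that lay nearer to the 18.7%. The median log2 fold change of those 38 was 0.31, against -0.016 for all genes tested. Leaving out S1 and S2 gave 4 of the 44 higher and 1 lower, and spike-in scaling 0 in either direction. Cdk6, a cyclin-dependent kinase of G1, went from 2.54 to 11.9 CPM in controls to 22.1 to 39.5 CPM, a log2 fold change of 1.99 (edgeR adjusted p = 0.0189). Irs2, an adaptor of insulin signalling, rose by a log2 of 1.06 (edgeR adjusted p = 0.00906) and Nras, a small GTPase, by 0.91 (edgeR adjusted p = 0.0219). In the other direction went Cdc34, a ubiquitin-conjugating enzyme (-1.74, edgeR adjusted p = 0.00378), and Hras (-0.61, edgeR adjusted p = 0.0208), the latter at 0.47 under spike-in scaling, or -0.47 relative to the median of all genes. Transcripts of the let-7 precursor genes, which are not mature let-7, were few. Mirlet7b had 38, 104, 25 and 24 counts in S1 to S4 and 26, 22, 3 and 7 counts in S5 to S8, and its log2 fold change of -1.72 (SE 0.93) did not pass the test (edgeR adjusted p = 0.209). Both this row and Mirlet7c2 (-2.02, edgeR adjusted p = 0.366) were picked out after their values were seen.

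MYC works as a dimer with MAX and against the MXD and MNT repressors. Of 21 genes of this network tested (24 listed), 1 was called higher and 1 lower, 9.52% against 18.7% of all genes. Mlxip, a glucose-responsive partner of MLX, rose by a log2 of 0.78 (edgeR adjusted p = 0.0421). The repressor Mxd4 went by -1.0 (edgeR adjusted p = 0.0251) and stood at 0.047 under spike-in scaling, or -0.90 relative to the median of all genes. Max ranged from 98.8 to 133 CPM in controls and from 86.3 to 96.4 CPM in knockdown cells, a log2 fold change of -0.34 that did not pass (edgeR adjusted p = 0.0819). Without S1 and S2, edgeR called 0 in either direction. At an unadjusted p under 0.05 over all 8 libraries, which 36.6% of all genes had, the counts were 5 higher and 4 lower.

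The listed MYC target genes were not called higher with Myc. Of 60 listed and tested, edgeR called 0 higher and 12 lower, and the median log2 fold change was -0.18. The 20% called were all lower, where 10.7% of all genes were called lower, 8.02% higher and 18.7% in either direction. The list holds mostly genes of ribosome assembly, chaperoning, translation and metabolism. At an unadjusted p under 0.05, which 36.6% of all genes had, the counts were 6 higher and 20 lower. DESeq2 called 2 higher and 13 lower, and limma-voom 1 and 10, with no share of all genes for these fits. Shmt2, a mitochondrial enzyme of serine and glycine metabolism, had 0.58 (edgeR adjusted p = 0.00845) and missed the fold threshold, and is named outside the rule. Rrp12, a ribosome assembly factor, had 48.7 to 66.2 CPM in controls and 19.8 to 28.1 CPM after knockdown, for a log2 fold change of -1.32 (edgeR adjusted p = 0.00217). The mitochondrial chaperonins Hspe1 and Hspd1 went by -1.34 (edgeR adjusted p = 0.0076) and -0.91 (edgeR adjusted p = 0.00537). For the cap-binding factor Eif4e the value was -0.62 (edgeR adjusted p = 0.0122). Under spike-in scaling 0 of the 60 were called, and Hspd1 and Eif4e stood at 0.18 and 0.42, or -0.77 and -0.53 once that shift of the median was taken off, while without S1 and S2 the counts were 2 higher and 3 lower.

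**Figure D4:**
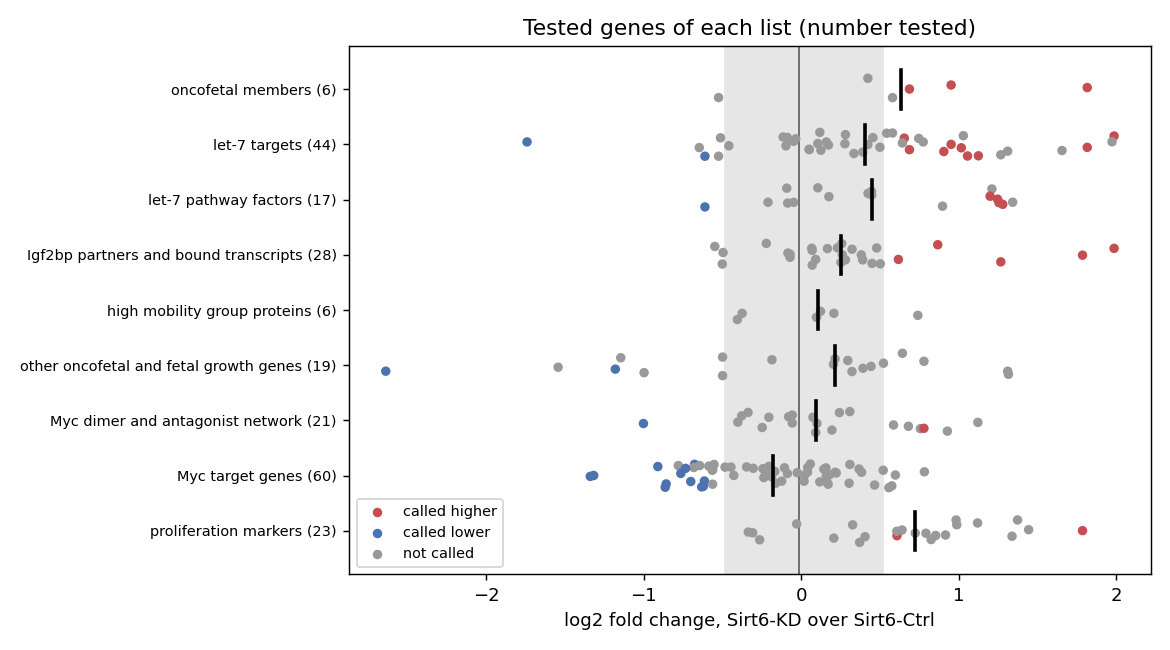
Log2 fold change of each gene tested (points, x axis) in the lists described here (rows), with each list's median as a black bar and the interquartile range of all genes shaded. The 3 oncofetal genes called higher lie to the right of 0, and 36 of the 60 MYC target genes, with a median of -0.18, lie to the left.

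Messages bound by IGF2BP proteins and their partners gave 5 called higher and 0 lower by edgeR of 28 tested, and 10 and 3 at an unadjusted p under 0.05. The 17.9% called were all higher, where edgeR called 8.02% of all genes higher and 18.7% in either direction. An unadjusted p under 0.05 was found for 36.6% of all genes. Of 33 listed, Igf2, H19, Mapk4, Sox4 and Gli1 had no row. Both DESeq2 and limma-voom also called 5 and 0, and without S1 and S2 the counts were 3 and 0. The poly(A)-binding protein gene Pabpc1 ranged from 998 to 1351 CPM in Sirt6-Ctrl and from 1985 to 2330 CPM in Sirt6-KD, with a log2 fold change of 0.87 (edgeR adjusted p = 0.00537). Cd44, a hyaluronan receptor, had 0.62 (edgeR adjusted p = 0.0136), and Mki67, a marker of dividing cells, had 1.79 (edgeR adjusted p = 0.0199). Cdk6, given above, and the glucose transporter Slc2a1 (1.27, edgeR adjusted p = 0.0225) were the others, Slc2a1 being named outside the rule for named genes.

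Of the other HMG proteins, 6 of 13 listed were tested and edgeR called 0, against 18.7% of all genes. At an unadjusted p under 0.05, which 36.6% of all genes had, there was 1 in each direction. DESeq2 and limma-voom each called 1 higher. Of 19 other oncofetal and fetal growth genes tested (35 listed), edgeR called 0 higher and 2 lower. These 10.5% were near the 10.7% of all genes called lower (18.7% in either direction). They were the imprinted growth inhibitor Cdkn1c (-2.64, edgeR adjusted p = 0.0115) and the imprinted zinc finger gene Peg3 (-1.18, edgeR adjusted p = 0.0203). Cdkn1c was at 3.05 to 15.2 CPM in Sirt6-Ctrl and at 0.83 to 2.11 CPM in Sirt6-KD. At an unadjusted p under 0.05, which 36.6% of all genes had, this list gave 3 higher and 2 lower. DESeq2 called 1 and 3, limma-voom 1 and 1, and the counts without S1 and S2 were 1 and 1. Proliferation markers had a median log2 fold change of 0.72 over 23 tested, 19 of them positive, with 2 called higher, Mki67 and Mcm2 (0.61), and 0 lower by edgeR. The 8.7% called higher was near the 8.02% of all genes. At an unadjusted p under 0.05 the counts were 8 and 0, where 36.6% of all genes had such a p, with DESeq2 5 and 0, with limma-voom 7 and 0, and without S1 and S2 1 and 0. Their summed level was 284 to 463 CPM in Sirt6-Ctrl and 513 to 521 CPM in Sirt6-KD, so that it was higher in the knockdown group, as the 3 called members were. In S1 to S4 the sum was 284, 337, 361 and 463 CPM. S4, the lowest control for Hmga1, Hmga2 and Myc, had the highest control sum. S1 to S3 stood in the same order as for Hmga2, but not in the order of Hmga1 or of Myc. The part of proliferation in the levels of the 3 called members was not tested.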

How the data were processed

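RNA from 8 NP cell samples (4 Sirt6-Ctrl and 4 Sirt6-KD) was sequenced. The table that the authors deposited holds raw, unnormalized read counts in 32975 rows (Ensembl genes and spike-ins), and a second table, of 13612 rows, holds their own comparison. Per the labels, the submitters' processing notes name Trimmomatic 0.36, STAR 2.5.2b, featureCounts of Subread 1.5.2, DESeq2 and build Rnor_6.0; the annotation and strand setting are not given in the sources used here. The comparison table's normalized signal, which the authors made by dividing counts by a size factor per library, was not used for results, nor were its fold changes and p-values, and only its gene names were taken from it.

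Counts were filtered with edgeR's default filterByExpr (edgeR 4.0.16, R 4.3.3), which left 13313 rows, 63 of them spike-ins, and TMM factors were applied. The 2 groups were compared with glmQLFit and glmQLFTest (two-sided), and p-values were adjusted by Benjamini-Hochberg across those 13313 rows. Standard errors came from the log2 fold change and its F statistic, and 95% intervals, which cover the spread between samples, are approximate. DESeq2 1.42.0 and limma 3.58.1 served as alternatives, as did spike-in scaling, other filters and leaving out libraries. For profiles, a prior count of 2 was added before taking log2.

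The members and the gene lists were chosen with earlier results of these data known. Genes named were all members, Sirt6, at most the 4 called genes of smallest p in each direction per list, and the 3 nearest profiles of each called member, and others are named as exceptions. 1 gene of a list is not reported here. The code was tested on simulated data. The series record speaks of cells of 4 rats, but no rat is matched to a library, so p-values measure the spread between samples and no pairing was used. The closest libraries of 1 group differed by more than sampling noise (chi-square per degree of freedom 18.4), so none was a duplicate. Sequences are from RefSeq in GRCr8, a different build from the files', and no coordinate was carried over.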

Additional observations from a re-analysis of the deposited data

Results flagged for a closer look

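Among 62 groups of 4 libraries examined for the named genes (31 genes in each of Sirt6-Ctrl and Sirt6-KD), 6 held a library set apart from the other 3, with a gap to its neighbour that exceeded Dixon's 95% critical value for 4 samples, as a share of the group's range. Chance flags about 1 group in 20, or 3.1 of 62. Hmga2 was lowest of the Sirt6-KD group in S7, at 14.9 CPM (gap 0.834 of the range). Mirlet7c2 was highest of the controls in S2, at 6.25 CPM (0.91), where 202 of its raw counts lay. For Cdk6 the library apart was S7, the highest of Sirt6-KD at 39.5 CPM (0.83). Mlxip was apart in S3 at 16.2 CPM (0.908) and Eif4e in S2 at 152 CPM (0.87), each the highest control. Mcm2 had its lowest Sirt6-KD library in S8, at 41.0 CPM (0.907).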

How the results depend on the processing

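No paired analysis was possible because neither labels nor column names tie a library of 1 group to a rat of the other. Hmga1 was called in 15 of 17 alternatives, Hmga2 in 9 and Myc in 8, with adjusted p from 0.000276 to 0.175, 0.00175 to 0.135 and 0.0101 to 0.519; the log2 fold changes of these genes, Igf2bp2 and Igf2bp3 were positive in all 17. Scaling by spike-in counts raised the median of all genes to 0.94. It gave Hmga1 1.95 (1.01 relative to that median, adjusted p = 0.0723), Hmga2 2.75 (1.81, 0.0718), Myc 1.64 (0.69, 0.0834) and Igf2bp1 1.27, with 0 oncofetal genes called, 20 genes called higher and 4 lower in all, and 0 list genes in either direction. It also put Tarbp2 at 0.38, Hras at 0.47, Mxd4 at 0.047, Hspd1 at 0.18 and Eif4e at 0.42, which relative to that median are -0.56, -0.47, -0.90, -0.77 and -0.53, all still negative, and called none of the 23 other named genes. Sirt6 is among these 23, at -0.36 (-1.31 relative to that median, edgeR adjusted p = 0.567). Testing against a fold change of 1.5 with glmTreat left 0 oncofetal genes called (Hmga1 0.95, Hmga2 1.82 and Myc 0.69, adjusted p = 0.175, 0.135 and 0.519), 92 genes higher and 185 lower, and 1 list gene higher and 2 lower, against 16 and 18 before. DESeq2 called 1606 genes higher and 27 list genes higher, and limma-voom 30 list genes higher, with Igf2bp1 at 0.89. Without S1 and S2, 1 oncofetal gene was called, with Hmga2 at 1.71 (adjusted p = 0.095) and Myc at 0.72 (0.0897), Igf2bp1 at 1.08, 709 genes lower and 5 list genes lower. Leaving out 1 library at a time gave 1 to 3 oncofetal genes higher (1 without S1, S5, S6 or S7) and 0 lower. Over all genes it gave 445 to 1699 higher and 700 to 1913 lower, and among list genes 5 to 31 higher and 7 to 25 lower. Log2 fold changes then ran from 0.78 to 1.09 for Hmga1, 1.5 to 2.33 for Hmga2, 0.54 to 0.83 for Myc and -1.15 to 1.65 for Igf2bp1. The highest counts over all genes came without S3, where 3 oncofetal genes were called. The cause of these changes was not tested. Igf2bp1 had 0 to 66 counts a library and its control libraries were far apart, and the let-7 precursor rows were likewise sparse.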
